A study of Homo sapiens with 2 samples.

Results

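CircRNAs that carry a circBase identifier and span 10000 bp or more of the genome between their back-splice sites made up 324 of the 1485 circRNAs in the deposited table, or 21.8%. The span runs from the lower to the higher back-splice coordinate, both bases counted and introns included. circBase is a public catalogue of circRNAs. No read count entered the choice. The remaining circRNAs were 588 catalogued ones of 1000 to under 10000 bp, 211 catalogued ones under 1000 bp and 362 with no identifier. The RNA came from SW620, an established colorectal cancer cell line. Of the 2 libraries, 1 came from cells kept for 24 h with 1 mg/mL of the herb pair Hedyotis diffusa-Sculellaria barbata (HD-SB), and 1 is labelled Control, without further description. Both were depleted of ribosomal RNA and digested with RNase R, an exonuclease that removes linear RNA.

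A circRNA forms by back-splicing, in which the end of a downstream exon is joined to the start of an upstream exon of the same transcript, and the exons between them are usually kept while their introns are spliced out. The circle has no free end, which protects it from exonucleases and makes circRNAs long-lived. Its abundance is counted from reads that cross the back-splice junction, a sequence that the linear mRNA does not hold. The genomic span of a circle therefore says how far apart its splice sites lie and not how long the RNA is.

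HD-SB listed 1475 circRNAs with 11570 junction reads, and the control listed 32 with 91. In each library the lowest listed value was taken as 2 reads. A circRNA not listed in a library is taken as under that minimum, although another filter could also have removed it. With 1 library per group nothing has a replicate error, no test across circRNAs was made, and a difference below is between these libraries and not a tested effect of HD-SB. Intervals are 95% Clopper-Pearson intervals, which cover counting error only, as amplified reads are not independent molecules. Of 16 markers of the intestinal epithelium, the labelled cell type, only VIL1, EPHB2 and EPCAM gave circRNAs, 5 in the whole table. The 9 leukocyte markers gave 2 and the 6 neural markers 1. The 8 fibroblast and smooth muscle markers and the 5 endothelial markers gave 0. None of these was a long catalogued circRNA, and counts this small from lists of unlike length do not settle the cell type.

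Positions are printed as the table has them, in a build that was not established. Each span was compared with the distances between exon starts and exon ends in the GENCODE 29 annotation of GRCh38, within the transcripts of its own host gene. For 292 of the 324 (90.1%) 1 pair of exons lay exactly that far apart, which gave the exons of the circle. In the junction sequences that follow, the lower-case bases are the end of the last exon of the circle and the capitals are the start of its first exon, both read 5′ to 3′ on the strand of the host from GENCODE 29 transcripts. They are reference sequence, not reads of SW620, and show some of the leading long circRNAs of HD-SB and of the control, the longest one, and hosts whose circles share a splice site. Only junctions inside coding sequence are shown.
MAN1A2 hsa_circ_0000117, exons 2 to 4, chr1:117402186-117414831, plus strand: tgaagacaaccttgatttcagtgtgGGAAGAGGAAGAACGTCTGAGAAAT
MAN1A2 hsa_circ_0000118, exons 2 to 5, chr1:117402186-117420649, plus strand: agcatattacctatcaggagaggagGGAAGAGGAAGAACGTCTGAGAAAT
UBAP2 hsa_circ_0001847, exons 9 to 12, chr9:33953285-33963791, minus strand: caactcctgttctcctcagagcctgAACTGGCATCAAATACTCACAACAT
UBAP2 hsa_circ_0001850, exons 7 to 10, chr9:33960826-33973237, minus strand: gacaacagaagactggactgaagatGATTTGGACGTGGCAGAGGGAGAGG
UBAP2 hsa_circ_0003141, exons 7 to 12, chr9:33953285-33973237, minus strand: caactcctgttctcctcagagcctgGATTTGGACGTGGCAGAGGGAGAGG
CLEC16A hsa_circ_0002086, exons 12 to 18, chr16:11020193-11051641, plus strand: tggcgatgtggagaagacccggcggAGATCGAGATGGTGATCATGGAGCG
CLEC16A hsa_circ_0000672, exons 12 to 19, chr16:11020193-11061022, plus strand: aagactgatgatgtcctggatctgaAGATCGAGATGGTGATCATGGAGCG
CLEC16A hsa_circ_0007846, exons 12 to 22, chr16:11020193-11126146, plus strand: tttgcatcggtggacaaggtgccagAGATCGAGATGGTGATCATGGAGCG
ATXN10 hsa_circ_0001247, exons 7 to 9, chr22:45729425-45740538, plus strand: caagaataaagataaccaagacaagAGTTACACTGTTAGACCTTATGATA
AHRR hsa_circ_0005694, exons 3 to 4, chr5:353730-376716, plus strand: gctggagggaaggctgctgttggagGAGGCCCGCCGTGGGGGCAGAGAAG
FTO hsa_circ_0005941, exons 5 to 7, chr16:53873786-53888951, plus strand: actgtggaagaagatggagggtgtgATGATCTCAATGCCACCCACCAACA
DOCK1 hsa_circ_0020397, exons 2 to 27, chr10:126970702-127127764, plus strand: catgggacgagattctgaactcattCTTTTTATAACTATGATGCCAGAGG
The positions in this list are the GRCh38 positions of the annotated exon edges and exon numbers are those of 1 annotated transcript per circle. The capitals are the same in both MAN1A2 circles and in all 3 CLEC16A circles, which differ in the exon that is joined back. The UBAP2 circle of exons 7 to 12 carries the lower-case part of the circle of exons 9 to 12 and the capitals of the circle of exons 7 to 10.

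The spans reached from 10070 to 157063 bp with a median of 19407 bp, yet the spliced circles were short. Over the 292 with matched exons the spliced length had a median of 416.5 nt (quartiles 332 and 532.25 nt, range 128 to 3477 nt, the upper end being 1 of several transcripts of QRICH2). For catalogued circRNAs of 1000 to under 10000 bp, whose median span was 3310 bp, the median was 363 nt, and for those under 1000 bp, with a median span of 566 bp, it was 327.5 nt. Introns took up a median of 97.7% of a long span. The median spliced length was 416 nt between 10000 and 20000 bp (n = 161), 414 nt between 20000 and 50000 bp (n = 109) and 373 nt between 50000 and 100000 bp (n = 17). Above that it was 913 nt, with a median of 8 exons, over 5 circles. Across the 292 the rank correlation of span with spliced length was 0.0049 and that of span with the number of exons 0.040, while that of span with the longest intron inside the circle was 0.83. These are descriptions over circRNAs of shared libraries, and the longest intron is part of the span. In 183 of the 292 a single intron of the circle was itself 10000 bp or longer.

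DENND1A, an activator of the endocytic GTPase Rab35, shows how far the lengths can part. Its circle hsa_circ_0002544 spanned 121319 bp of chromosome 9, from 126519982 to 126641300, and had 4 HD-SB reads. In the transcript used, exons 2, 3, 4 and 5 of 71, 44, 50 and 120 nt make up the circle, 285 nt in all. Over the 3 transcripts with these outer exon edges the circle held 3 to 4 exons and 235 to 285 nt. Its inner exons come from the annotation and were not read. The circle of the transcript used is printed from the start of exon 2 (GRCh38 chr9:123757703-123879021, minus strand), with exons 3 and 5 in capitals.
DENND1A hsa_circ_0002544: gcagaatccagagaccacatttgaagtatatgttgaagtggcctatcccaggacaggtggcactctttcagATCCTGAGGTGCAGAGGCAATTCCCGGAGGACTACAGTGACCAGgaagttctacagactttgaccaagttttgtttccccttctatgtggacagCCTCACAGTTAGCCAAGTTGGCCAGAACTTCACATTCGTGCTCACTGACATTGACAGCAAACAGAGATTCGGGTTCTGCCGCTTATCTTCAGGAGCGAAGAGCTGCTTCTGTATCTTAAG
The last bases of exon 5 are joined back to the first bases of exon 2. At the other end, the circle of QRICH2 (hsa_circ_0006799, 17750 bp, 2 HD-SB reads) had 3477 nt of exon in the transcript used and 568 nt in the shortest transcript with the same exon edges, and that of the cell cycle checkpoint kinase ATM (hsa_circ_0024231, 20139 bp, 2 HD-SB reads) joined 16 exons into 2262 nt. The shortest circle, from ADAM22 (hsa_circ_0004674, 13779 bp, 6 HD-SB reads), had 128 nt. ADAM22, QRICH2 and ATM were chosen after their values were seen.

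**Figure D1:**
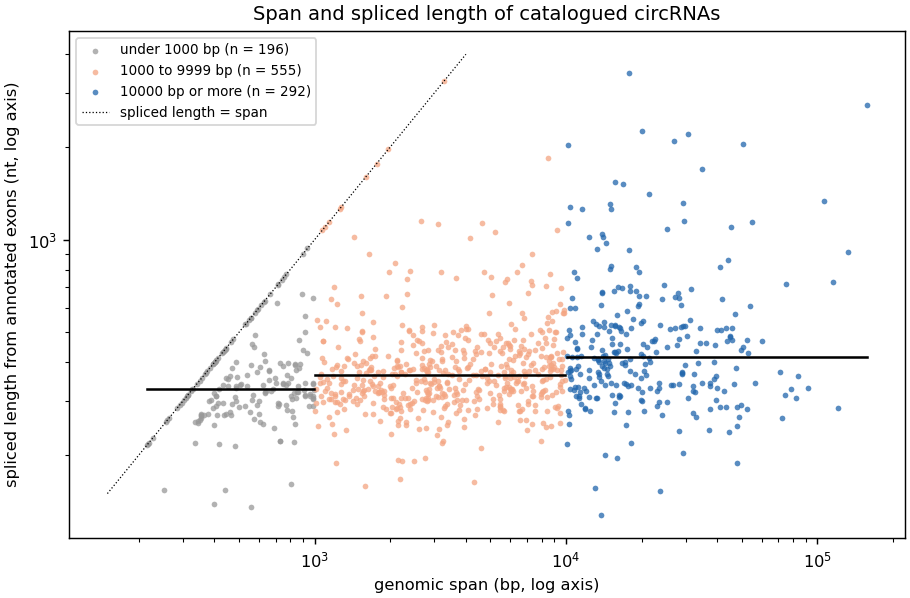
Spliced length in nt against genomic span in bp, both on log axes, for the catalogued circRNAs with matched exons (1 point each), coloured by span class, with a black bar at the median of each class and a dotted line where spliced length equals span. The points leave the dotted line as span grows, and the medians are 327.5, 363 and 416.5 nt.

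Long circles held slightly more exons than those of the shorter catalogued classes. The median was 4 exons, against 3 for catalogued circRNAs of 1000 to under 10000 bp and 2 for those under 1000 bp. It was also 4 for uncatalogued circRNAs of 10000 bp or more. Circles of 3 exons (98 of 292) and 4 exons (79) were the most common, 39 had 2 exons and 42 had 6 or more. No long circle had 1, whereas 60 of 196 catalogued circRNAs under 1000 bp were single exons. The classes are set by span, which counts exons and introns, so exon number is bound to the class. DOCK1, a guanine nucleotide exchange factor for Rac, gave the circle with the most exons (26 exons, 2738 nt, 6 HD-SB reads), followed by ATM. The first exon of the circle was exon 2 of its transcript in 113 of 292 (38.7%), against 141 of 555 (25.4%) and 62 of 196 (31.6%) in the shorter catalogued classes. MAN1A2, KLHDC4, UXS1 and DOCK1 are examples. In 65 of 292 (22.3%) the circle held the annotated start codon, against 12.97% and 16.3% in those classes. Wholly inside the coding region lay 214 of 292 (73.3%), against 83.8% and 80.6%. Among uncatalogued circRNAs of 10000 bp or more, 22 of 73 with matched exons (30.1%) began at exon 2. The start codon was held by 13.7% of them, and 74.0% lay inside the coding region. Their exon 2 and start codon shares lay between those of the shorter catalogued classes.

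The introns beside the circle were long as well. The intron upstream of the first exon had a median of 14075 bp and the one downstream of the last exon 16254 bp, against 6060.5 and 5726 bp for catalogued circRNAs of 1000 to under 10000 bp. Both flanking introns reached 10000 bp in 145 of 291 (49.8%), against 20.7% of that class and 19.4% of the class under 1000 bp. Among uncatalogued circRNAs of 10000 bp or more the share was 32.4%. The flanks are not part of the span. The host genes were also longer than those of the shorter catalogued classes, with a median of 144518 bp against 82607 and 43777.5 bp. Flank and gene length therefore cannot be told apart here.

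In HD-SB, 320 of the 324 were listed, with 2312 reads or 20.0% of the library (19.3 to 20.7). By number they were 21.7% of the HD-SB list (19.6 to 23.9). Counts per circRNA were low. The median was 5 reads (quartiles 3 and 8), 45 had the minimum of 2 reads, 53 had 10 or more, and the mean was 7.22. The median was also 5 reads for catalogued circRNAs of 1000 to under 10000 bp and 6 for those under 1000 bp. The difference lay in the upper end, where the highest long circRNA had 98 reads against 142 and 373 in the shorter classes, and 10 or more reads were reached by 16.6% of the long class, 19.2% of the middle class and 29.9% of the short class. The 10 most abundant held 20.2% of the reads of the class and the 50 most abundant 44.9%. Among the 320 the rank correlation of span with HD-SB reads was -0.11, a weak one in sparse counts.

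**Figure D2:**
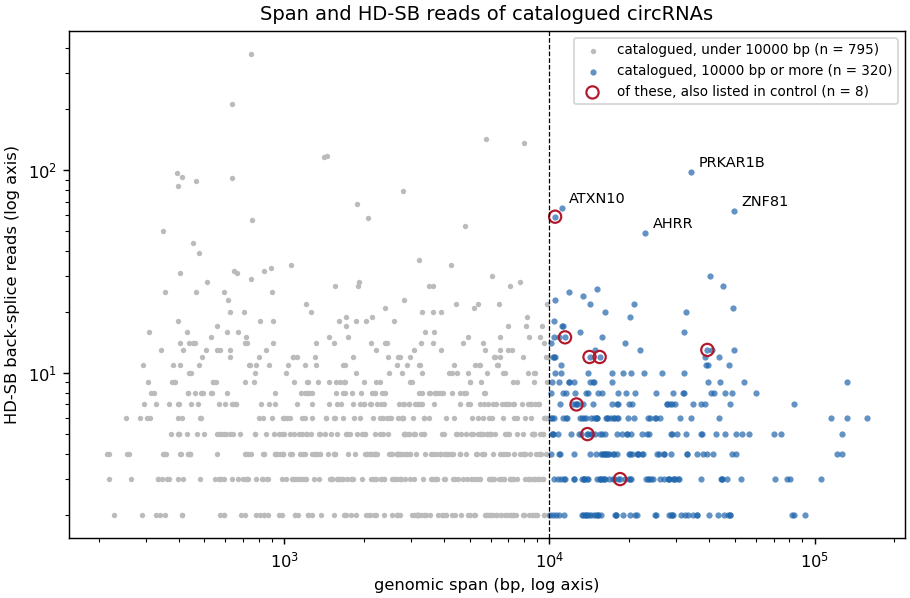
HD-SB junction reads against genomic span in bp, both on log axes, for catalogued circRNAs listed in HD-SB (1 point each); the dashed line marks 10000 bp, and rings mark the 8 long circRNAs also listed in the control. Most long circRNAs lie below 10 reads at every span, and 4 of those that stand above the rest are named: PRKAR1B with 98 reads, ATXN10 with 65, ZNF81 with 63 and AHRR with 49.

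The most abundant was hsa_circ_0008039 of PRKAR1B, a regulatory subunit of the cyclic AMP-dependent protein kinase, on chromosome 7 from 716866 to 751164. It had 98 reads, or 8470 CPM (counts per 1000000 listed junction reads of the library), and its span of 34299 bp matched exons 2 to 4 with 462 nt. ATXN10, ataxin 10, followed with 65 reads on hsa_circ_0001247 (chromosome 22, 46125305 to 46136418, 5618 CPM, exons 7 to 9, 445 nt). The zinc finger gene ZNF81 had 63 reads on hsa_circ_0006364 (chromosome X, 47705504 to 47755339, 5445 CPM, exons 3 to 5, 440 nt), in which 1 intron took 41677 of the 49836 bp. UBAP2, which encodes a ubiquitin-associated protein, had 59 reads on hsa_circ_0001847 (chromosome 9, 33953283 to 33963789). AHRR, which represses signalling by the dioxin receptor, had 49 reads on hsa_circ_0005694 (chromosome 5, 353845 to 376831), a circle of 2 exons and 289 nt across 22987 bp.

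After these 5 the counts dropped to 30 reads and declined gradually. MLLT1, a reader of acylated histones in the super elongation complex, had 30 reads on hsa_circ_0004594, and the clone-named transcript RP11-453F18__B.1 on chromosome X had 27 on hsa_circ_0001944. The next 4 ranks were genes of chromosome 16, namely the RNA demethylase FTO (26 reads), the chromatin regulator ANKRD11 (25), KLHDC4 (24) and BANP, a nuclear matrix-associated DNA-binding protein (23). UXS1, the enzyme that makes UDP-xylose, and GALK2, a galactokinase family member, had 22 reads each. RAD54L2, a SNF2-family helicase (21 reads), and the Ras GTPase-activating protein RASA3 (20 reads) completed the first 15. None of these 15 other than UBAP2 was listed in the control, and at an equal share of reads PRKAR1B would have had 0.771 control reads, under the lowest listed count of 2.

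In all, 266 host genes gave the 322 circRNAs with a host of their own, and 2 more carried small-RNA names alone. Most hosts gave 1 long circle (225), 29 gave 2, and 12 gave 3 or more. Of the 75 pairs of long circles from the same host, 53 overlapped, 38 were nested and 35 shared 1 splice site, 21 at the lower and 14 at the higher coordinate. Over the whole table, 109 of the 324 (33.6%) used a splice site that another listed circRNA also used, against 17.3% and 11.8% in the shorter catalogued classes.

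In some of the families 1 circle led. ATXN10 gave 5 long circles with 65, 5, 5, 5 and 3 reads. PRKAR1B gave 4 with 98, 6, 6 and 6 reads, of which 3 ended at position 751164. UBAP2 gave 59, 4 and 3 reads, the 3 circles whose junctions are printed above. In ANKRD11 a circle of 25 reads (hsa_circ_0003846) and one of 9 reads (hsa_circ_0040929) shared one splice site and differed by 3 bp at the other, with 282 and 285 nt, and another circle elsewhere in the gene had 6 reads. The clone-named RP11-453F18__B.1 had 27, 4 and 3 reads. ARHGAP32, a GTPase-activating protein, had 13, 4 and 3 reads.

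In other families the counts were closer. TBCD, a tubulin folding cofactor, had 17, 14 and 5 reads on circles of exons 18 to 23, 15 to 19 and 14 to 17. MAD1L1, a spindle checkpoint protein, had 12, 8 and 3 reads on circles that overlapped at their ends. CLEC16A, an endosomal protein, had 8, 3 and 2 reads on circles that all began at exon 12, with spans of 40830, 105954 and 31449 bp. DYRK1A, a protein kinase, had 8 and 2 HD-SB reads on circles sharing the start 38792601, and the circle of 52582 bp with the same start was listed in the control alone. With counts this small the order inside these families is not resolved.

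Of the 324 long circles, 63 shared a splice site with a circRNA under 10000 bp, in 67 pairs. The shorter one had more HD-SB reads in 40 pairs, the longer one in 22, and 5 were equal, with medians of 7 and 5 reads. The widest gap was in ATXN7, a subunit of the SAGA coactivator, where the circle of exons 3 to 4 (638 bp) had 211 reads, while the long circles of exons 2 to 4, 3 to 5 and 2 to 5 had 5, 2 and 9. The RNA-binding protein gene RBM33 had 136 reads on its circle of exons 3 to 5 (8042 bp) and 8 on the long circle of exons 2 to 5, with 9 and 6 on 2 long circles elsewhere in the gene. CAMSAP1, LRP5 and ABHD2 showed the same order, with 118 against 4, 84 against 2 and 79 against 8 reads. These last 3 were named after their values were seen. Among the 36 pairs of long circles with 1 shared site, which are the 35 within hosts and the pair under small-RNA names on chromosome 7, the shorter had more reads in 19 and the longer in 13.

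**Figure D3:**
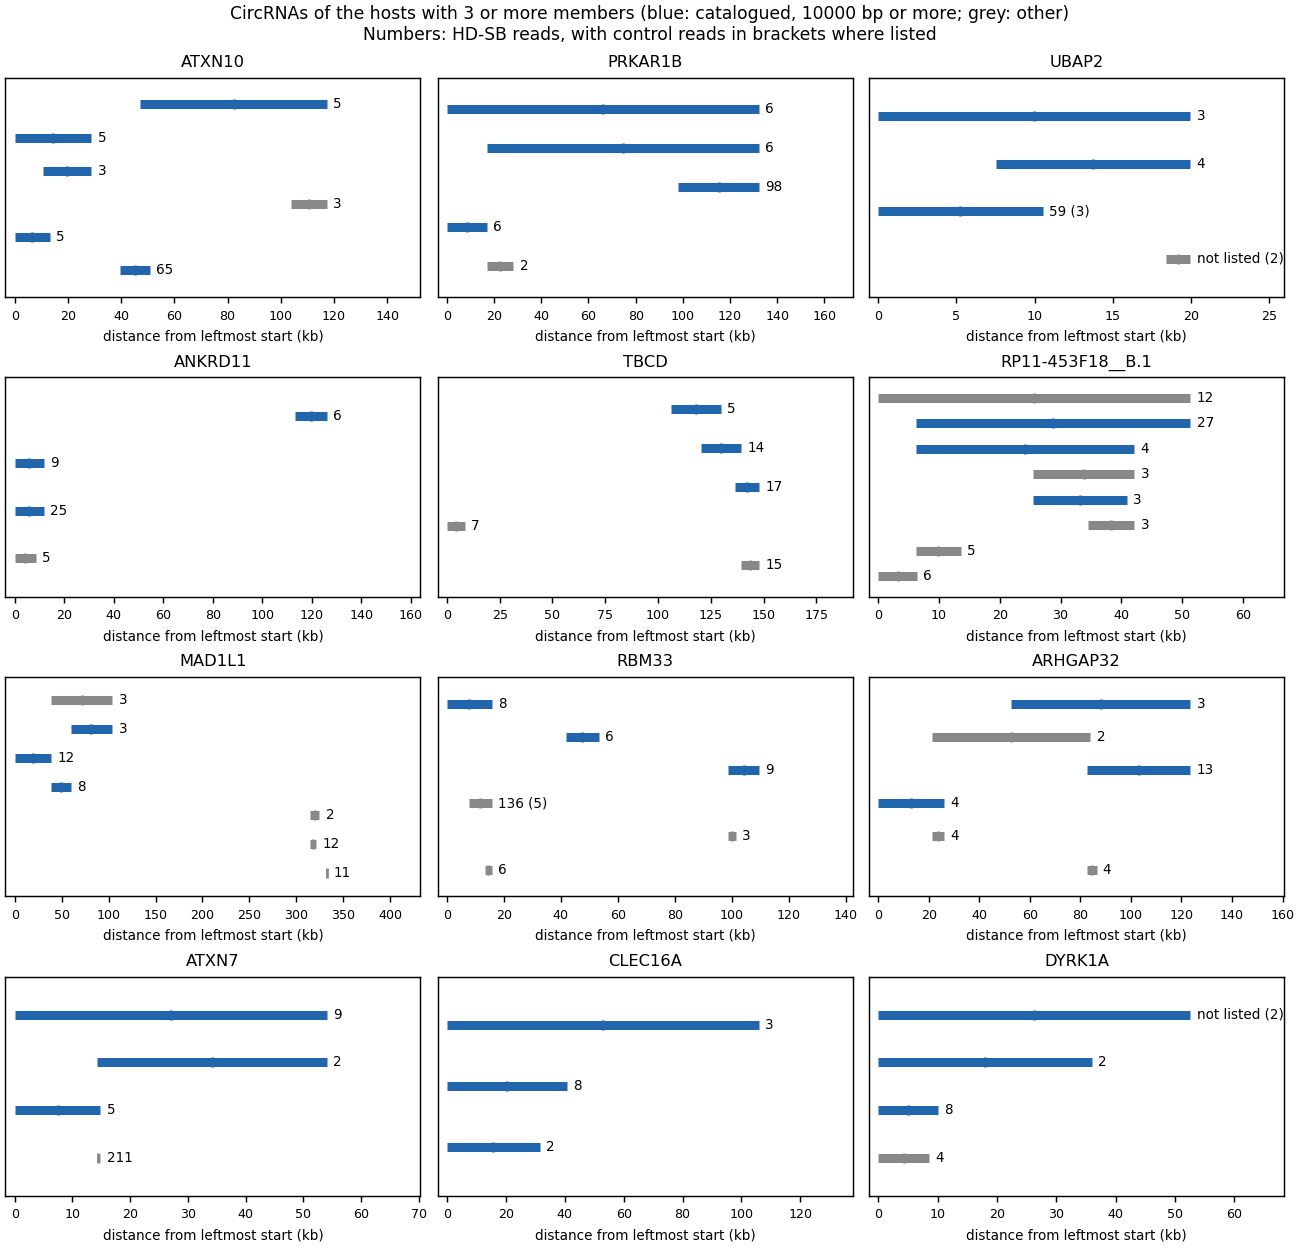
All listed circRNAs of the 12 hosts with 3 or more long catalogued circles, drawn as bars from their lower to their higher coordinate, with distance in kb from the leftmost start of the host on the x axis; blue bars are long catalogued circles, grey bars other circRNAs, and numbers are HD-SB reads with control reads in brackets. CLEC16A bars share their left edge, the ATXN7 circle with 211 reads lies inside the span of its longest circle, and the long circles of MAD1L1 overlap at their ends.

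In the control, 12 long catalogued circRNAs were listed with 38 of the 91 reads, or 41.8% (31.5 to 52.6), against 20.0% in HD-SB. The intervals of the read shares did not overlap. By number the 12 were 37.5% of the 32 control circRNAs (21.1 to 56.3), an interval that overlapped that of HD-SB. The circle of RNF13 and both of MAN1A2 carried 15 of the 38 reads. A further comparison left out the long catalogued circRNA with the most reads in each library, which can only lower the share. The shares were then 37.6% (27.4 to 48.8) in the control and 19.3% (18.6 to 20.0) in HD-SB. These intervals did not overlap. Without the circles of RNF13 and MAN1A2, a comparison added after the data were seen, the control share was 30.3% (20.2 to 41.9) and that of HD-SB 19.9% (19.2 to 20.6), intervals that overlapped. Among circRNAs listed in both libraries the shares were 38.1% and 21.4%.

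Of the 12, 4 were listed in the control alone, and they were longer than the 8 listed in both. RNF13, an E3 ubiquitin ligase of endosomal membranes, had 6 reads on hsa_circ_0001346 (chromosome 3, 149563798 to 149639014, 75217 bp), the most of any control circRNA, and its exons 3 to 9 come to 716 nt. CTBP2, a transcriptional corepressor, had 3 reads on hsa_circ_0005418 (72097 bp, 263 nt). DNAH14, an axonemal dynein heavy chain, had 3 reads on hsa_circ_0016601 (54875 bp, 9 exons, 1140 nt), and DYRK1A had 2 on hsa_circ_0005955 (52582 bp, 283 nt). These 4 held 14 control reads. Their spans started at 52582 bp, and those of the 8 in both ended at 39402 bp, with medians of 63486 and 14038 bp. The spliced lengths of the groups overlapped. RNF13 and CTBP2 each also gave a long catalogued circle with the same lower coordinate, listed in HD-SB alone. These had 3 HD-SB reads (RNF13, 26144 bp) and 2 (CTBP2, 83872 bp), and were chosen after their values were seen.

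The 8 in both libraries had 24 control and 126 HD-SB reads. MAN1A2, a Golgi mannosidase of N-glycan trimming, had 5 control and 3 HD-SB reads on hsa_circ_0000118 and 4 and 7 on hsa_circ_0000117, the nested pair printed above. The former took a control share of 5.49% (1.81 to 12.4) and an HD-SB share of 0.0259% (0.00535 to 0.0758), a ratio of 212 (41.2 to 1365). The ratio was 72.7 (15.6 to 286) for the latter. MIB1, an E3 ligase acting on Notch ligands (hsa_circ_0000835), had 3 and 5 reads, and PAFAH1B2, a catalytic subunit of platelet-activating factor acetylhydrolase (hsa_circ_0007827), had 3 and 15, a ratio of 25.4 (4.72 to 89.9). PHF21A, a histone reader of the LSD1 complex (hsa_circ_0000296), and the glutamine transporter SLC38A1 (hsa_circ_0000396) had 2 and 12 reads each, and PRRG1, a Gla-domain membrane protein (hsa_circ_0008077), had 2 and 13. UBAP2 lay nearest to an equal share, with 3 and 59 reads and a ratio of 6.46 (1.296 to 19.8). All 8 took a smaller share in HD-SB, by a median ratio of 23.3, against 26.6 for the 14 other circRNAs listed in both.

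That direction is bound to the depth. A control read is worth 127.1 HD-SB reads, so a circRNA needed 254.3 HD-SB reads for an equal share to give 2 control reads, and no long circRNA reached that count. On the log2(CPM + 172.861) scale, for circRNAs with a mean of both libraries of at least 216 CPM, 174 of 186 long circRNAs had an HD-SB value 2-fold higher or more, beside 96% of all 797 that passed this filter, and 12 had one 2-fold lower or more, beside 4.02% of all. The 174 were unlisted in the control and the 12 were those listed there, so the counts restate the listing. The matched exons of the 12 control-listed circles had a median GC content of 42.1%, against 48.2% for the 280 others with matched exons. Whether GC content has a part in the listing was not tested.

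**Figure D4:**
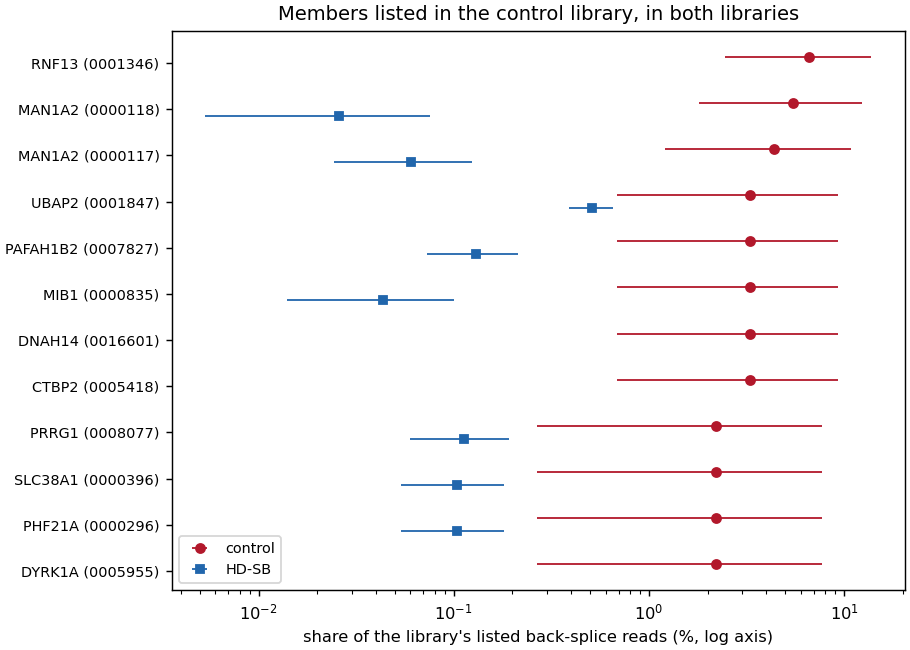
Share of listed junction reads in percent, on a log axis, of the 12 long circRNAs listed in the control, in the control (red circles) and in HD-SB (blue squares), with 95% Clopper-Pearson intervals; circRNAs without a blue square were not listed in HD-SB. Red points range from 2.20% to 6.59%, and no blue interval reaches the red interval of the same circRNA; the closest pair is that of UBAP2.

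By role of the host, chromatin and transcription regulators gave 23 long circles from 18 genes with 151 HD-SB reads (7.10% of the 324, beside 5.32% of all 1485 circRNAs). The corepressor CTBP1 had 20 reads (16160 bp), the histone demethylase KDM1A 19 on a circle of exons 2 to 3 (20052 bp, 300 nt) and PHF14 13 (49677 bp, 291 nt). Their control reads were the 3 of CTBP2 and 2 of PHF21A. Cytoskeleton, adhesion and small GTPase regulators gave 22 circles and 115 reads (6.79% beside 3.57%), with RASA3, ARHGAP32, ARHGAP26 (7 reads) and the microtubule plus-end protein CLASP2 (7 reads). The 24 circles of widely studied circRNA hosts (7.41% beside 4.71%) had 180 HD-SB and 20 of the 38 control reads, with UBAP2, the nuclear export receptor XPO1 (17 reads on hsa_circ_0001017), PHF21A and RBM33 at the top. No test was made of these shares.

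Cell cycle, centrosome and DNA repair hosts gave 17 circles and 95 reads (5.25% beside 3.84%), led by FANCL, the ubiquitin ligase of the Fanconi anaemia pathway (14 reads), UIMC1, which brings BRCA1 to DNA breaks (13 reads), MAD1L1 and the mismatch repair protein MSH3 (9 reads). Membrane traffic, Golgi and N-glycan hosts gave 15 circles with 72 HD-SB reads and the 9 control reads of MAN1A2 (4.63% beside 2.90%). LRBA had 11 reads, TRAPPC9 of the TRAPP tethering complex 8 and the SNARE protein STX6 6. RNA processing hosts also gave 15 (4.63% beside 3.84%) with 97 reads, among them FTO and LARP4B (13 reads). Kinase and growth signalling hosts gave 15 with 174 reads (4.63% beside 2.69%). Of these PRKAR1B held 116, followed by the phosphatase PPM1D (10 reads), RPS6KC1 (9 reads) and AKT2 (9 reads).

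Smaller groups were ubiquitin ligases and proteases, with 11 circles (3.40% beside 2.29%) and 50 HD-SB reads (HERC4 10, WWP2 7, KLHL2 6, BIRC6 6) and 9 control reads from RNF13 and MIB1. Lipid and energy metabolism hosts had 8 circles (2.47% beside 2.02%) and 71 reads, with PCCA, a subunit of propionyl-CoA carboxylase (15 reads), MCCC2 (8 reads) and PDHX (7 reads) after FTO, which is in both lists. Nuclear transport hosts had 6 circles (1.85% beside 1.28%) and 56 reads, with XPO1, RANGAP1, the activator of the Ran GTPase (16 and 6 reads on 2 circles), and RANBP9 (9 reads). Zinc finger hosts had 5 circles and 87 reads, of which ZNF81 gave 63, ZNF215 9, ZBTB46 6 and ZNF841 5. They were 1.54% of the long class, beside 2.22% of all circRNAs. Wnt, TGF-beta and Hippo hosts had 3 circles (0.926% beside 1.41%), from AXIN1, a scaffold of the beta-catenin destruction complex (18 reads on hsa_circ_0037158), the Hippo effector YAP1 (3 reads) and the Wnt co-receptor LRP5 (2 reads).

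The 324 lay on every autosome and on chromosome X. Chromosome 7 held the most, with 29 circRNAs and 266 HD-SB reads, followed by chromosomes 2 (27), 16 (25, 212 reads), 1 (23) and 11 (22), and chromosomes 14 (2), 18 (3) and 19 (5) held the fewest. As a share of the catalogued circRNAs of a chromosome, the long class made up 28.9% in all. It was highest on chromosome 13, at 14 of 25 or 56.0% (34.9 to 75.6), and on chromosome X, at 11 of 22 (28.2 to 71.8), and lowest on chromosome 19, at 5 of 67 or 7.46% (2.47 to 16.6). The intervals of chromosomes 13 and 19 did not overlap. These chromosomes were picked as the extremes of the shares, so the gap is no test of a difference. On chromosome 19, MLLT1 gave 30 of the 59 reads, and on chromosome X, ZNF81 gave 63 of 129. The 38 control reads fell on 8 autosomes and chromosome X, with 12 on chromosome 1 from MAN1A2 and DNAH14.

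**Figure D5:**
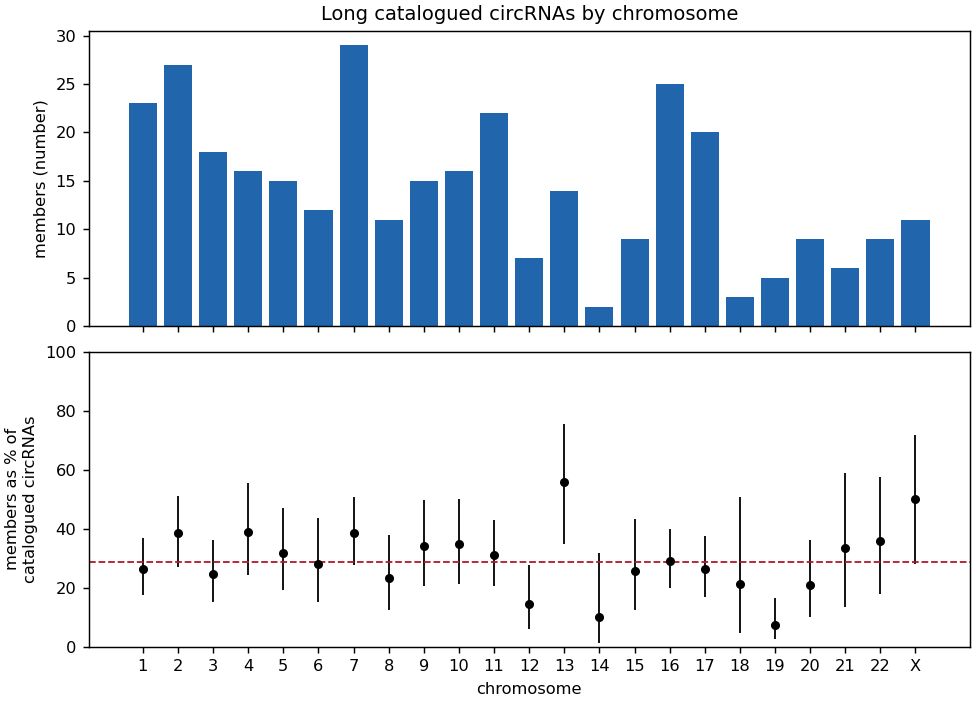
Number of long catalogued circRNAs per chromosome (top, bars from 0) and their share of the catalogued circRNAs of that chromosome in percent (bottom, points with 95% Clopper-Pearson intervals; the dashed line is the share over all chromosomes, 28.9%). Chromosome 7 has 29, chromosome 13 the highest share at 56.0% and chromosome 19 the lowest at 7.46%.

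Spans of 10000 to 20000 bp made up 169 of the 324 and 53.0% of their HD-SB reads, those of 20000 to 50000 bp 127 and 42.0%, those of 50000 to 100000 bp 20 and 3.07%, and those above 8 and 1.86%. The longest was that of DOCK1 (chromosome 10, 128768966 to 128926028), followed by PRKAR1B hsa_circ_0079041 (132272 bp, 6 reads), SERGEF hsa_circ_0006193 (131932 bp, 9 reads), a pair on chromosome 7 under small-RNA names that differ by 3 bp (126862 and 126859 bp, 4 and 5 reads), DENND1A, PRKAR1B hsa_circ_0079045 (115382 bp, 6 reads) and CLEC16A hsa_circ_0007846. SCAPER (91632 bp, 2 reads) and the adenosine kinase ADK (83913 bp, 7 reads) came next. All 10 were listed in HD-SB and not in the control. Exons were matched for 7 of the 10. In the transcripts used, DENND1A, SCAPER and ADK came to 285, 330 and 361 nt. The PRKAR1B circles (730 and 913 nt), CLEC16A (1338 nt) and DOCK1 (2738 nt) lay above the median of the class.

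The limit of 10000 bp fell inside a continuous range of spans. The 5 shortest were those of ARID2 (10070 bp, 2 HD-SB reads), DYRK1A hsa_circ_0006062 (10102 bp, 8), CDC25A (10143 bp, 6), FANCL (10171 bp, 14) and CRY2 (10174 bp, 4), with spliced lengths of 421, 218, 480, 278 and 1132 nt. Catalogued circRNAs just below the limit were those of RSF1 (9902 bp, 12), ZC3H3 (9869 bp, 2), TOLLIP (9793 bp, 9) and MROH1 (9758 bp, 22), with 350, 592, 577 and 579 nt.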

How the data were processed

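The deposited table holds 2 values per circRNA, headed TPM per the file headers. As deposited by the authors they behave as CPM: each column adds up to 1000000, and 100% of the listed values were whole multiples of 1 step (86.4 CPM in HD-SB, 10989 CPM in the control) within 0.01 of a step. The step was set at the lowest listed value divided by 2, and values of 3 steps occurred in both columns. Division by the step gave reads, and 0.001 was taken as not listed. Per the submitters' processing notes the tools include FastQC and HISAT2 2.1.0 and the build GRCh38, with no step attached to any of them. How circRNAs were called, filtered or freed of duplicate reads is not stated in the labels.

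Exons were assigned where the span equalled the distance from an exon start to an exon end of 1 GENCODE 29 transcript of the host. Older host names were matched through RefSeq synonyms, and a host was found for 318 of the 324 circRNAs. Matched exons lay at the table's own position for 1 of 292, so the table is not in GRCh38 coordinates. Spans shifted by 1 to 10 bp in either direction matched 0 to 7 long circRNAs, against 294 unshifted. In 178 of 184 hosts with several matched circRNAs all were displaced alike, which settled the pair for 1 long circRNA (PRKAR1B). Of the rest, 2 had several pairs, 24 none and 6 no host. Where several transcripts held the pair, principal, then CCDS, then basic transcripts came first, and for 206 of the 292 all gave 1 spliced length.

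Named circRNAs are the 15 with most HD-SB reads, all listed in the control, the 10 longest, 5 on each side of the limit, those of hosts with 3 or more, and up to 4 per host list; others are marked as chosen after their values were seen. Of these, 2 circRNAs are not reported here. The circRNAs and lists were chosen with earlier results of these data known. Shares carry Clopper-Pearson intervals (scipy 1.17.1), and no test across circRNAs was run. Alternatives changed the span limit, denominator, pseudocount, filter, scaling and fold. The exon matching and the intervals were tested on simulated data.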

Additional observations from a re-analysis of the deposited data

How the results depend on the processing

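With a span limit of 5000 bp the class held 33.2% of HD-SB reads, 58.2% of control reads and 35.3% of the HD-SB circRNAs; with 20000 bp it held 9.39%, 17.6% and 10.2%, and 15.6% of the control circRNAs, since the limit sets what is counted. At both limits the control read share stayed above that of HD-SB. With catalogued circRNAs alone as the denominator, HD-SB shares were 23.9% of reads and 28.7% of circRNAs, and with 1 circRNA per host 19.2% of circRNAs. Among circRNAs listed in both libraries the HD-SB read share was 21.4%. Without the RNF13 and MAN1A2 circles, chosen after seeing the data, the control read share was 30.3%. The count 2-fold higher in HD-SB was 312 with no filter and 61 with a pseudocount 4 times larger, in place of 174. The 61 leave out circRNAs with 8 HD-SB reads and unlisted in the control, which lie exactly at 2-fold under that pseudocount. The 312 equal the number of long circRNAs listed in HD-SB alone, out of 324. Over the whole table, 1453 of 1485 circRNAs were listed in HD-SB alone. Counts over all circRNAs are not given for the other settings. The count lower was 7 under median-ratio scaling, in place of 12. Each alternative changes what is counted or the value needed for a call, and no other reason for these moves was tested. The other 18 alternative values moved by less than counting error or, for counts, by less than 1.5 times. No paired analysis was possible because neither condition was sequenced more than once. What can be said of the control rests on 91 reads.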
